A study of Mus musculus with 39 samples.

Results

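The Eph receptors and ephrins described here are the 6 receptor genes Epha3, Epha4, Epha5, Epha7, Ephb1 and Ephb2 and the 4 ligand genes Efna2, Efna5, Efnb1 and Efnb2, with the Notch and RBPJ binding sites of the embryonic mouse cortex that lay nearest to them. A site is a consensus peak, a region in which overlapping peaks of the deposited lists were merged, and it was assigned by the closest protein-coding start site on mm10. In this way 135 of the 20809 consensus peaks on the nuclear chromosomes belonged to the 10 genes, and 39 of them to Epha4. The genes were chosen by the number of peaks near them, Epha4 above all, so their peak counts are given as a description and without a test.

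Eph receptors are receptor tyrosine kinases that are activated by ephrins on the surface of a neighbouring cell. A-class ephrins are held in the membrane by a lipid anchor and B-class ephrins span it, and signals run forward into the cell with the receptor and in reverse into the cell with the ligand. In the developing cortex this contact signalling is known for its part in the adhesion and division of radial glia, the migration of young neurons and the guidance of their axons. Notch is likewise a receptor for ligands on neighbouring cells, and its released intracellular domain, NICD, enters the nucleus and joins the DNA-binding protein RBPJ, whose binding sites have the core word TTCCCA.

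Binding was measured by targeted DamID (TaDa), in which a Dam methylase fused to the protein of interest marks GATC sites near the places where it sits. Embryos of wild-type MF1 mice were electroporated in utero at E13.5 and the cortex was dissected 24 h later, at E14.5. The Hes5 promoter drove the fusions in radial glial cells (RGCs) and the Tα1 promoter in intermediate progenitor cells (IPCs), so each cell type was defined by the promoter of a plasmid and all bound proteins were supplied by it. RBPJ was the human RBPJ1, in 3 samples of each cell type. Notch in RGCs was the mouse NdECD form in 2 samples and NICD in 2 samples, whereas all 4 IPC samples carried mouse NICD. Controls carried Dam alone, in 5 RGC and 4 IPC samples, and within a cell type RBPJ and Notch were set against the same controls. The files hold 1 pooled list of peak positions for each protein and cell type, with no height, score or value of a single sample. Spread between samples and depth are therefore unknown, and a share of peaks is given with its Wilson 95% interval, which covers counting error over peaks only. No RNA was measured in these files, and the identity of the cells was not checked against marker genes.

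At Epha4, 6 sites were called by 3 or by all 4 lists, and a stretch of 120 bases from each is printed here because these are the places where the lists coincided. Each stretch lies in the part that all calling lists covered and was placed to hold the most TTCCCA words outside repeats. Capitals mark TTCCCA, or TGGGAA where the word is on the other strand. Sequences are from RefSeq for GRCm38.p6, plus strand, and the name gives the distance of the middle of the site from the main Epha4 start site.
1024 kb downstream, all 4 lists, chr1:76491123-76491242: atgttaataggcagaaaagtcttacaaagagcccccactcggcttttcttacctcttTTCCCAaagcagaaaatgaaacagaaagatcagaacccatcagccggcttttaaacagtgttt
443 kb downstream, 3 lists, chr1:77073127-77073246: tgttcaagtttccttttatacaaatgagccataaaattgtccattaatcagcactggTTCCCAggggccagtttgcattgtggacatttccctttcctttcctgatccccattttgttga
19.6 kb downstream, 3 lists, chr1:77496340-77496459: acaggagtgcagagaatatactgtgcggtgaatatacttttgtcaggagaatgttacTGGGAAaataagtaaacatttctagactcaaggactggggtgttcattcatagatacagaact
9.18 kb downstream, 3 lists, chr1:77505106-77505225: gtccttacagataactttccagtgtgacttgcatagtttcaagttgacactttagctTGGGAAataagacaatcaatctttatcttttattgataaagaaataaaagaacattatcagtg
32.6 kb upstream, 3 lists, chr1:77545861-77545980: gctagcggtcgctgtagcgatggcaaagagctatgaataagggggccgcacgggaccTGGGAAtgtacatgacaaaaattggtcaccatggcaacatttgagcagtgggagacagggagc
84.2 kb upstream, 3 lists, chr1:77601649-77601768: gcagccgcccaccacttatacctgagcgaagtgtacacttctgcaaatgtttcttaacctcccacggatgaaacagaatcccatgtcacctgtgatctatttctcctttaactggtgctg
The last stretch, from the 561 bp that its 3 lists shared, held no TTCCCA word, although the whole site of 5920 bp held 6. Of windows of 120 bases at the middle of all consensus peaks, 13.2% held the word on either strand, and since the stretches were placed to hold it, this share is not a measure to compare them with.

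The 3 Epha4 sites of at most 300 bp are printed whole as the shortest of the domain. A short call does not by itself place the binding more closely, since Dam marks GATC sites near the protein. The first, of 300 bp, began 17.4 kb upstream of the Epha4 start and was called for both proteins in RGCs and held 3 GATC sites and no TTCCCA word. The second, of 220 bp, began 41.3 kb upstream and was called for RBPJ in RGCs alone and held 1 TTCCCA word on the other strand and no GATC site. The last, of 224 bp, had its middle 488 kb downstream and was called for RBPJ in RGCs alone, with 2 GATC sites and no TTCCCA word.
17.4 kb upstream, chr1:77532439-77532738: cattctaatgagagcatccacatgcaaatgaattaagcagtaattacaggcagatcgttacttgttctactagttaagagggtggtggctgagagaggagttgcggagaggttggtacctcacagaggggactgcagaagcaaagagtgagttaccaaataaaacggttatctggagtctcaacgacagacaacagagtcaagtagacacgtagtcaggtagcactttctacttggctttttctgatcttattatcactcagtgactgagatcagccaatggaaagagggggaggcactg
41.3 kb upstream, chr1:77556404-77556623: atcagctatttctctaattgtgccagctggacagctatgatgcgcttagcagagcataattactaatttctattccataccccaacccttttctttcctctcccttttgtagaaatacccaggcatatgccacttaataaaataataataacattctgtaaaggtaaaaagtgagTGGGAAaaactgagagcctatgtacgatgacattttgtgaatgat
488 kb downstream, chr1:77026751-77026974: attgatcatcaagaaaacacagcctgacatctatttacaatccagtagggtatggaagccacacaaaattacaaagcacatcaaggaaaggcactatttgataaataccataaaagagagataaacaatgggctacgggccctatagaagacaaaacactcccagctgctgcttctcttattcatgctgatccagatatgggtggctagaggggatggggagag
Among all consensus peaks, 9.76% held no GATC site.

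Peaks also lay over or beside the start sites of the members, and 250 bases before the start are printed for 4 receptors whose start regions differed in the lists that called them. The Epha4 start was covered by an RGC RBPJ peak, that of Epha3 by RBPJ peaks of both cell types, and that of Epha5 by an IPC RBPJ peak alone. Beside the Ephb2 start lay a site of both proteins in RGCs. Sequences are from RefSeq for GRCm38.p6, 5′ to 3′ on the strand of the gene, with the same capitals.
Epha4, chr1:77515089-77515338, minus strand: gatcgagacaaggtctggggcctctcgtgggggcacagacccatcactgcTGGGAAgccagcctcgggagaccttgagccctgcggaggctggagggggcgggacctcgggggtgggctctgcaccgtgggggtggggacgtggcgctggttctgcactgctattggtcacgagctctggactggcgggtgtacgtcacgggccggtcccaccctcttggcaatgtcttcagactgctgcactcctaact
Epha3, chr16:63864176-63864425, minus strand: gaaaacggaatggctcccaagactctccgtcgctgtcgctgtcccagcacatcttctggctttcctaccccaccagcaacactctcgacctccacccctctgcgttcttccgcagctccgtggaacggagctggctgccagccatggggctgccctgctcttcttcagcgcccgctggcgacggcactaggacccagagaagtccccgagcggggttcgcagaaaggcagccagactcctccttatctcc
Epha5, chr5:84417383-84417632, minus strand: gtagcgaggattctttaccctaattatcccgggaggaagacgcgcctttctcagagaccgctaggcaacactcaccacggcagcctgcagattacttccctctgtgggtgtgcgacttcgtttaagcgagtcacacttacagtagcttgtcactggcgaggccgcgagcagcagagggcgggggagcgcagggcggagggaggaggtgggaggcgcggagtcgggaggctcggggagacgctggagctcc
Ephb2, chr4:136836013-136836262, minus strand: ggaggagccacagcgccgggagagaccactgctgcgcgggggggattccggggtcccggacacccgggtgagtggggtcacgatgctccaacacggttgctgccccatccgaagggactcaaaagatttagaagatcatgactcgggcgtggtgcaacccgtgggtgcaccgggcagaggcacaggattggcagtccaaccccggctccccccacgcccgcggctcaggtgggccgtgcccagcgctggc
TTCCCA was found on either strand in the 250 bases before the start in 4 of the 11 entries for the 10 genes, 1 of Epha4, 2 overlapping ones of Epha7 and 1 of Efnb1. Over all 32851 promoter entries of the table the share was 21.6%.

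Epha4 encodes a receptor that binds ephrins of both classes. The gene (ENSMUSG00000026235, chr1:77367185-77515088, minus strand, 148 kb) had 39 consensus peaks, the second highest number of the 21938 protein-coding genes after Auts2 with 47 and before Zfp608 with 37. They spread over 1.34 Mb, from chr1:76489462 to chr1:77825432. The nearest protein-coding start sites on either side, of Slc4a3 and Pax3, lay 1826 kb and 682 kb away, and the territory of Epha4, the sequence nearer to its 5 start sites than to any other gene's, measured 1.39 Mb. The territory held 28.0 consensus peaks per Mb against 7.86 over the genome. Among the 276 genes with at least 10 consensus peaks, which were 1.26% of protein-coding genes, the median was 20.7 per Mb and Epha4 ranked 80th. Epha4 therefore stood out by the number of its sites more than by their density over the whole territory.

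**Figure D1:**
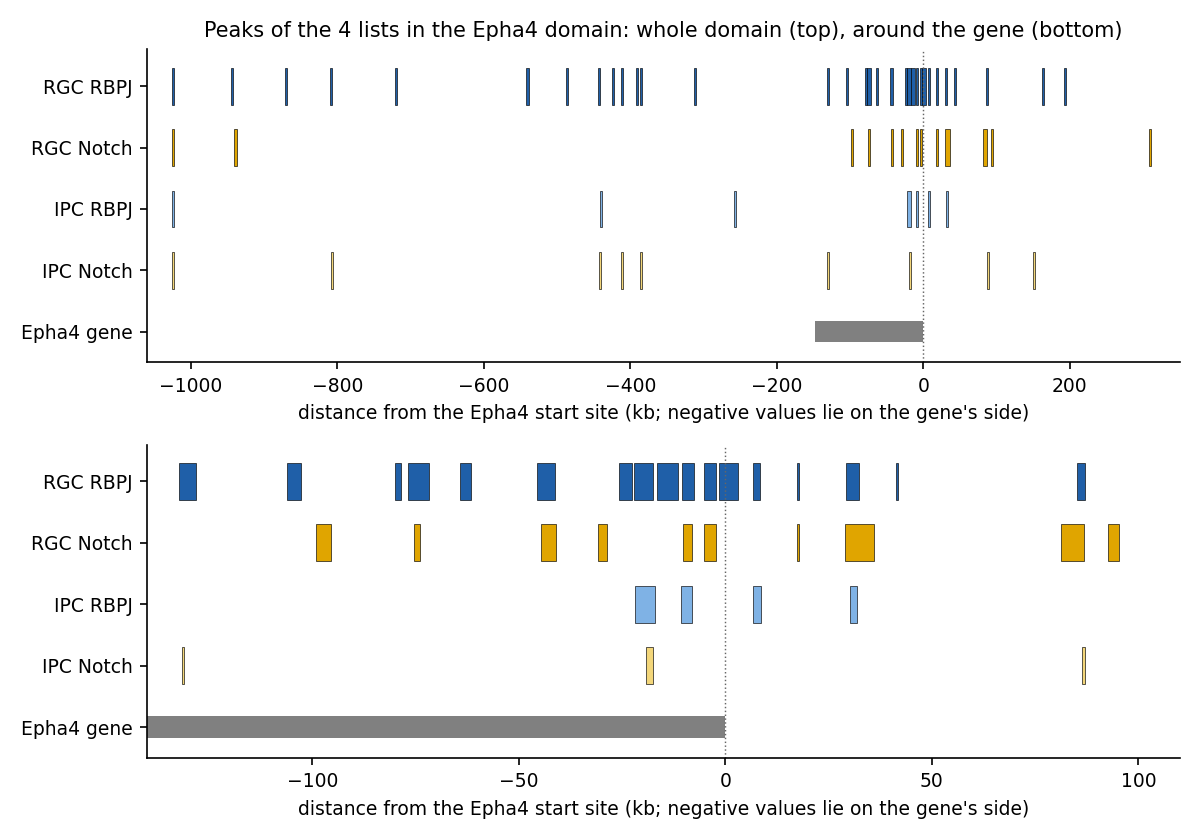
Peaks of the 4 lists at Epha4 by their distance from the main start site in kb, over the whole domain (top) and around the gene (bottom). Each bar is a peak, the grey bar is the gene, and narrow peaks are drawn at a minimum width. Of the 39 consensus peaks, 15 lie past the end of the gene, 13 inside it and 11 upstream, and RBPJ peaks of RGCs are the most frequent in every section.

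The sites were most crowded at the gene itself. With gaps of at most 100 kb between neighbours, 23 of the 39 formed 1 chain of 327 kb (chr1:77382953-77709533), with 70.4 sites per Mb and 72.4 kb of bound sequence. With gaps of at most 50 kb, 20 of them formed a chain of 228 kb. A chain is dense by its definition. Of the 276 genes with at least 10 sites, 9 had more sites in their longest chain at gaps of 100 kb. Of the 39 sites 14 touched the gene, and they covered 47.1 kb or 31.8% of its length. At 36 of the 276 genes more sites touched the gene. All 13 sites with their middle inside the gene lay in introns 2, 3, 4, 5 and 11, and intron 3 alone held 7 of them. A second chain of 9 sites lay 258 to 540 kb downstream of the start and another of 6 sites 721 to 1024 kb downstream, both beyond the end of the gene. The gap between neighbouring sites was 14.2 kb at the median and ranged from 565 bp to 178 kb.

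At the outer ends the assignment to Epha4 was least certain. The first site of the domain (chr1:76489462-76492138) lay 885 kb from the nearest Epha4 start, and the next site outward, 50.6 kb further, lay 885 kb from Slc4a3 and was given to that gene. This first site was the only one of the domain in all 4 lists, with peaks of 2575 bp for RBPJ and 2556 bp for Notch in RGCs and of 1920 bp and 2052 bp in IPCs. With 1 start site per gene in place of all, 38 sites were left at Epha4, and each list had 1 fewer, so that the site of all 4 lists was the one lost. It belonged to cluster 2 and lay 329 bp from the start of a noncoding gene, the lincRNA Gm17751. At the other end the last site, an RGC Notch peak of 2595 bp, lay 308 kb from the start, and the next site outward was 282 kb further and was nearest to Pax3.

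Other noncoding genes lay among the sites. The peak over the Epha4 start (chr1:77513671-77518085, 4415 bp, GC content 54.3%) also covered the lincRNA Gm28386, which is read from the plus strand. A site of 3 lists in intron 3 (chr1:77493074-77497959) covered the microRNA gene Mir6352. Gm816, another lincRNA, held 2 sites. When start sites of all annotated genes were used, 5 consensus peaks in place of 39 had Epha4 as their nearest gene, and the other 34 went to annotated genes that are not protein-coding, 8 of them to Mir6352. The files do not show which gene a site acts on.

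Most Epha4 sites were RBPJ sites of RGCs. Of the 39, 32 had an RGC RBPJ peak (82.1%, interval 67.3% to 91.0%), against 67.6% of all consensus peaks. RGC Notch peaks were found at 13 (33.3%, 20.6% to 49.0%), against 17.7%. In IPCs, 7 sites had an RBPJ peak (17.9%, 8.98% to 32.7%), against 26.2%, and 9 had a Notch peak (23.1%, 12.6% to 38.3%), against 10.1%. Epha4 thus held 9 Notch and 7 RBPJ sites in IPCs, with overlapping intervals. The IPC Notch list was the shorter, with 2099 consensus peaks against 5454. The difference lay past the end of the gene, with 5 Notch and 3 RBPJ sites. Inside the gene there were 2 of each, and upstream also 2 of each. Within 100 kb of a start, 3 sites had an IPC Notch peak and 4 an IPC RBPJ peak. Among the 276 genes with at least 10 sites, only Msi2 had more RGC Notch sites and only Sorl1 more IPC Notch sites. For each count 1 other gene was tied with Epha4. Such counts grow with the number of sites, for which Epha4 was chosen.

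Several lists often met at 1 site. Peaks of 2 or more lists were found at 15 of the 39 sites (38.5%, 24.9% to 54.1%), against 17.1% of all consensus peaks, and peaks of 3 or 4 lists at 6 (15.4%, 7.25% to 29.7%), against 3.88%. Only Zfp608 had more sites of 3 or 4 lists among the 276 genes, a count that grows with the number of sites. By the share of sites with 2 or more lists Epha4 ranked 34th of the 276, whose median was 20%, and Epha5 with 50% was among the 33 genes above it. In RGCs both proteins were called at 8 sites (20.5%, 10.8% to 35.5%), against 7.77% of all consensus peaks. Of the 13 RGC Notch sites, 8 were thus also RBPJ sites (61.5%, 35.5% to 82.3%). Over all RGC Notch sites the share was 43.8%, inside that interval. Both RGC lists rest on the same Dam-only samples, and the part of this in their overlap was not tested.

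Sites called in IPCs were mostly called in RGCs too. Either IPC list had a peak at 13 Epha4 sites, against 33.9% of all consensus peaks, and 11 of those 13 (84.6%, 57.8% to 95.7%) had an RGC peak as well. Over all consensus peaks 33.9% (32.8% to 35.0%) of IPC sites did, and at the other 9 members 17 of 36 (47.2%, 32.0% to 63.0%). The IPC Notch sites met RBPJ of RGCs at 8 of 9 sites and RBPJ of their own cell type at 3 of 9. Over all IPC Notch sites these shares were 53.7% and 23.4%. Of all 39 Epha4 sites 82.1% had an RGC RBPJ peak and 17.9% an IPC RBPJ peak, so the order was the same without regard to Notch. IPC peaks without an RGC peak were found at 2 of the 39 sites (5.13%, 1.42% to 16.9%), against 22.4% of all consensus peaks. These were an RBPJ peak of 1675 bp 258 kb downstream and a Notch peak of 611 bp 149 kb upstream.

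The sites of 3 lists differed in how the lists filled them. At 443 kb downstream (chr1:77071380-77073627, cluster 6) the RGC RBPJ peak measured 2147 bp and the IPC peaks 662 bp for RBPJ and 1003 bp for Notch. In intron 3, at chr1:77493074-77497959, the RBPJ peaks of RGCs and IPCs measured 4503 bp and 4628 bp and the IPC Notch peak 1829 bp. Close by, at chr1:77504376-77507439, RBPJ and Notch of RGCs and RBPJ of IPCs gave peaks of like width, 2796, 2376 and 2562 bp. Both intronic sites belonged to cluster 7. Upstream, the widest site of the domain (chr1:77544128-77551195, cluster 1) followed the RGC Notch peak, which covered all 7068 bp, while RBPJ covered 3150 bp in RGCs and 1711 bp in IPCs. The site at chr1:77596340-77602259 (cluster 6) was also mostly an RGC Notch peak of 5650 bp, with 1983 bp of RGC RBPJ and 831 bp of IPC Notch.

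Sites with Notch in RGCs but without RBPJ were found at 5 places, the outermost 939 kb downstream and 309 kb upstream. RBPJ of RGCs alone was found at 17 sites, among them the start site and a site of 5091 bp in intron 3. RBPJ and Notch of RGCs without an IPC peak met at 4 sites, at 74.3, 43.3 and 3.6 kb downstream inside the gene and at the short site of 300 bp upstream. Another 4 sites joined RGC RBPJ with IPC Notch and no other list, at 809, 412, 387 and 130 kb downstream, the last of them in intron 11. Upstream of the gene these lists met only at the site of 3 lists 84.2 kb away, together with RGC Notch. Shares of these combinations over all consensus peaks are not given here, so the counts only describe the locus. The median width of the 39 sites was 2595 bp, against 1890 bp over all consensus peaks, and together they covered 104 kb, the fourth highest sum of the 276 genes.

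**Figure D2:**
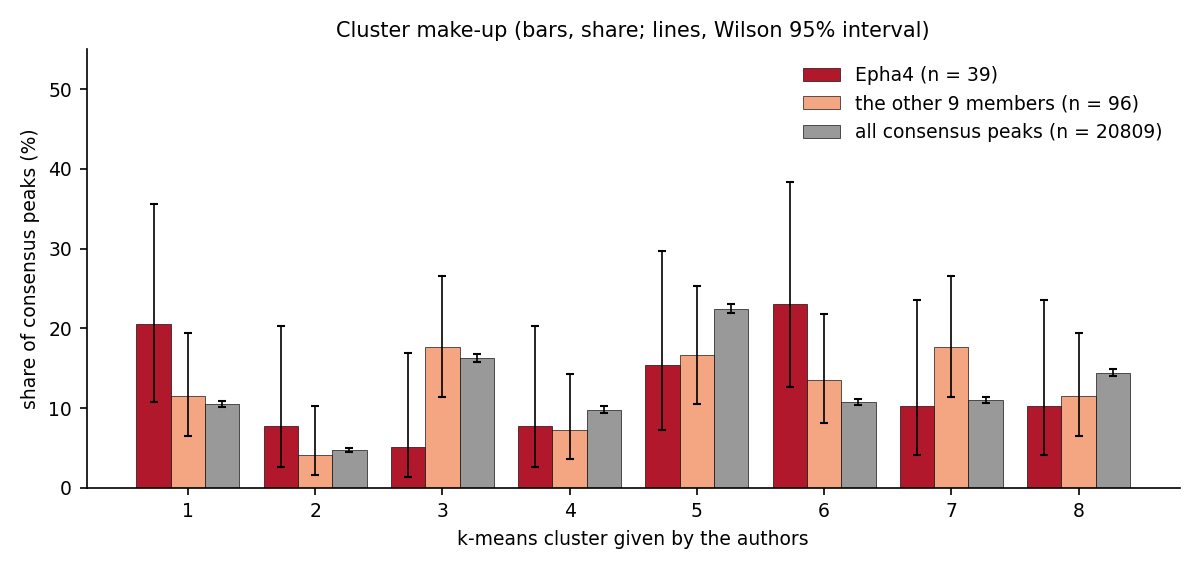
Share of consensus peaks in each of the 8 k-means clusters of the authors, for Epha4, the other 9 members and all consensus peaks, with Wilson 95% intervals as lines. At Epha4, cluster 6 (23.1%) and cluster 1 (20.5%) have the highest shares, and cluster 3 (5.13%) the lowest.

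The authors had sorted the consensus peaks into 8 clusters by the intensity of the 4 proteins and cell types, which are not in the files. Of the 39 Epha4 sites 9 were in cluster 6 (23.1%, 12.6% to 38.3%), against 10.8% of all consensus peaks, and 8 in cluster 1 (20.5%, 10.8% to 35.5%), against 10.5%. Over the genome, cluster 6 had IPC Notch peaks at 48.3% of its sites and RGC RBPJ peaks at 64.2%, and cluster 1 had RGC Notch peaks at 70.8%. Cluster 3, of which 96.7% had an IPC RBPJ peak, held 2 Epha4 sites (5.13%, 1.42% to 16.9%), against 16.3%. The other clusters held 3 sites in cluster 2 and 3 in cluster 4, against 4.76% and 9.79% of all consensus peaks, 6 in cluster 5, against 22.5%, and 4 each in clusters 7 and 8, against 11% and 14.4%. With 39 sites these shares are wide, and the genome share lay outside the interval for clusters 1 and 6 alone, by a small margin for cluster 1.

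**Figure D3:**
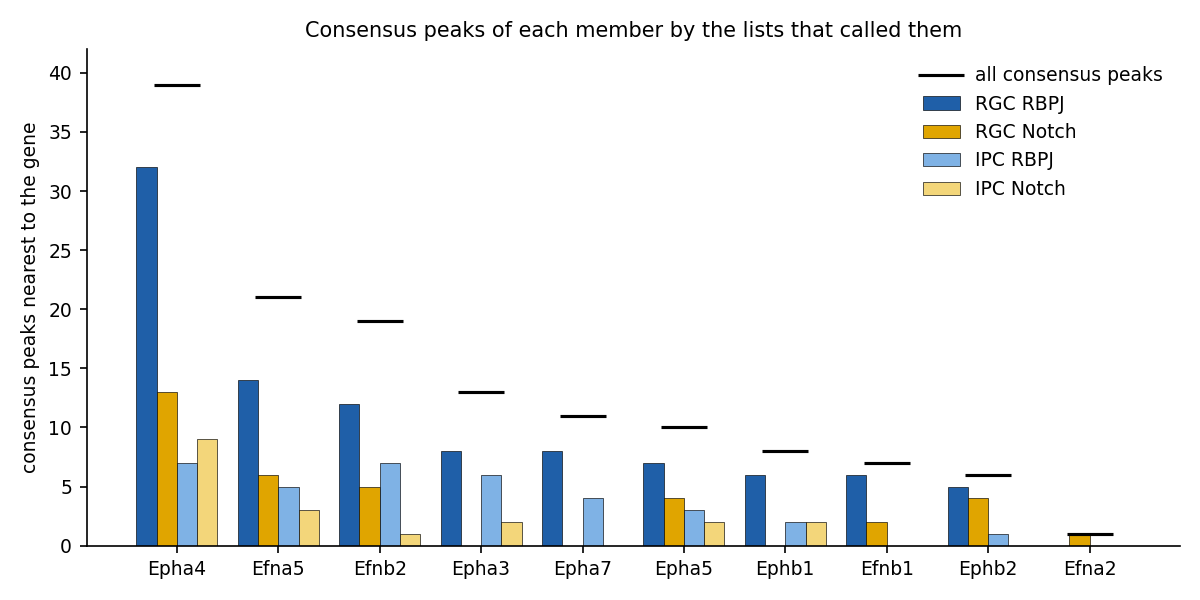
Consensus peaks nearest to each of the 10 genes, as bars for each list and as a black line for all lists together. A site in several lists counts in each bar. Epha4 has 39 sites, Efna5 21 and Efnb2 19, and no bar for RGC Notch stands at Epha3, Epha7 or Ephb1.

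Across the 10 genes the number of sites ran from 1 to 39, while 38.7% of protein-coding genes had at least 1. RGC RBPJ peaks were found at 9 of the 10 (30.9% of protein-coding genes), RGC Notch at 7 (11.5%), IPC RBPJ at 8 (16.2%) and IPC Notch at 6 (6.91%). Peaks of every list were found at 4 genes, Epha4, Epha5, Efna5 and Efnb2, and at 2.54% of protein-coding genes. Since the genes were selected on their peaks, these counts say nothing beyond that choice. Excluding Epha4, the 9 genes had 96 sites, and their list shares were nearer to those of all consensus peaks, with RGC RBPJ at 68.8%, RGC Notch at 22.9%, IPC RBPJ at 29.2% and IPC Notch at 10.4%. The share with 2 or more lists was 26.0% (18.3% to 35.6%) there.

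**Figure D4:**
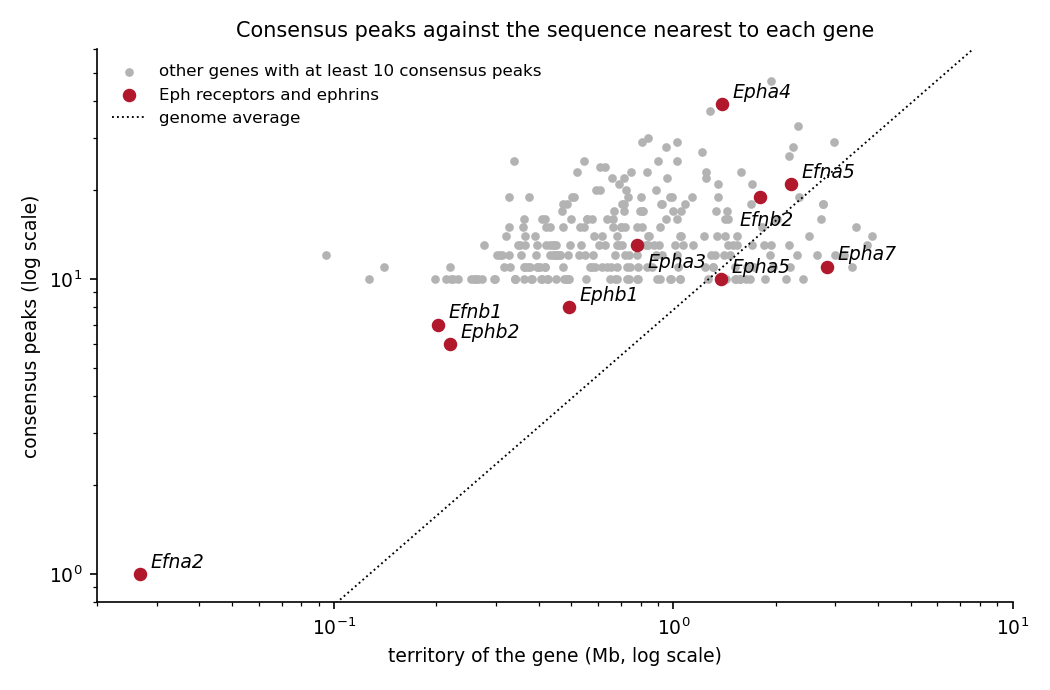
Consensus peaks of a gene against the size of its territory in Mb, both on log scales. Grey points are the other genes with at least 10 consensus peaks, red points the 10 Eph receptors and ephrins, and the dotted line is the genome average of 7.86 peaks per Mb. Epha4 lies above the line, and Epha5 and Epha7 below it.

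Of the A-class receptors, Epha3, Epha5 and Epha7 had fewer and sparser sites than Epha4. Epha7 (chr4:28813131-28967499), whose splice forms include one without the kinase, had 11 sites in a territory of 2.84 Mb, or 3.88 per Mb, under the genome average. RGC RBPJ peaks were at 8 of them and IPC RBPJ peaks at 4, and neither cell type had a Notch peak. Of all consensus peaks 17.7% had a Notch peak in RGCs and 10.1% in IPCs, and with 11 sites an absence is a coarse count. No peak lay over its start sites, and its introns held 5 sites, all in intron 5 between 69.4 and 99.4 kb downstream. The widest, of 4365 bp, was also the farthest, at chr4:27843984-27848348, 965 kb from the nearest start.

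Epha3 (chr16:63543534-63864175), another receptor for A-class ephrins, had 13 sites, 16.7 per Mb. RBPJ peaks were at 8 sites in RGCs and at 6 in IPCs, and IPC Notch peaks were at 2. No RGC Notch peak was found, against 17.7% of all consensus peaks. The widest site (chr16:63860919-63865140) covered the start, with RBPJ peaks of 4222 bp in RGCs and 2655 bp in IPCs. A site in intron 2 (chr16:63805542-63807892) had 3 lists, with peaks of 2183 bp for RGC RBPJ, 1532 bp for IPC RBPJ and 1542 bp for IPC Notch. The farthest site (chr16:63500206-63502358, RGC RBPJ) lay 361 kb from a start. IPC peaks alone were found at 5 of the 13 sites, against 2 of 39 at Epha4 and 22.4% of all consensus peaks. Of those 5, 4 were RBPJ sites.

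Epha5 (chr5:84054761-84417382), a receptor prominent in the developing forebrain, had 10 sites, 7.23 per Mb, and at 5 of them 2 or more lists met. Its start was covered by an IPC RBPJ peak alone (chr5:84415323-84417979, 2657 bp, GC content 55.9%). RGC Notch peaks were at 4 sites, all upstream of the gene between 244 and 533 kb, and 2 of them were RBPJ sites of RGCs too. One of those (chr5:84848409-84850938, cluster 2) had 3 lists, with 1942 bp of RGC RBPJ, 1185 bp of RGC Notch and 1997 bp of IPC Notch. The widest and farthest site (chr5:85238659-85241937, 3279 bp) lay 821 kb away, at the edge of the territory.

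The B-class receptors Ephb1 and Ephb2 bind B-class ephrins and differed in Notch calls, over few sites. Ephb1 (chr9:101922128-102354693) had 8 sites, with RGC RBPJ at 6, IPC RBPJ at 2 and IPC Notch at another 2. It had no RGC Notch peak, against 17.7% of all consensus peaks. An RGC RBPJ peak covered its start (chr9:102353110-102355511, GC content 60.3%), and the widest site, RGC RBPJ of 5525 bp, lay in intron 1 (chr9:102230864-102236388). The farthest (chr9:102146782-102147729), 206 kb away in intron 3, was an IPC Notch peak of 948 bp.

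Ephb2 (chr4:136647539-136835988) had 6 sites within 66.3 kb of a start, and Notch was called with RBPJ at 3 of its 5 RGC RBPJ sites. A site of 3 lists in intron 2 (chr4:136772168-136776425) was also its widest, with 4258 bp of RGC RBPJ, 4074 bp of RGC Notch and 1668 bp of IPC RBPJ. Beside the start, 146 bp upstream of it, both proteins in RGCs gave peaks of 3060 and 3076 bp (chr4:136836134-136839215). The farthest site (chr4:136760313-136763399) was again one of both proteins in RGCs. IPC Notch was absent from the 6 sites, against 10.1% of all consensus peaks. The density of 27.4 per Mb came close to the 28.0 of Epha4, over a territory of 0.219 Mb.

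**Figure D5:**
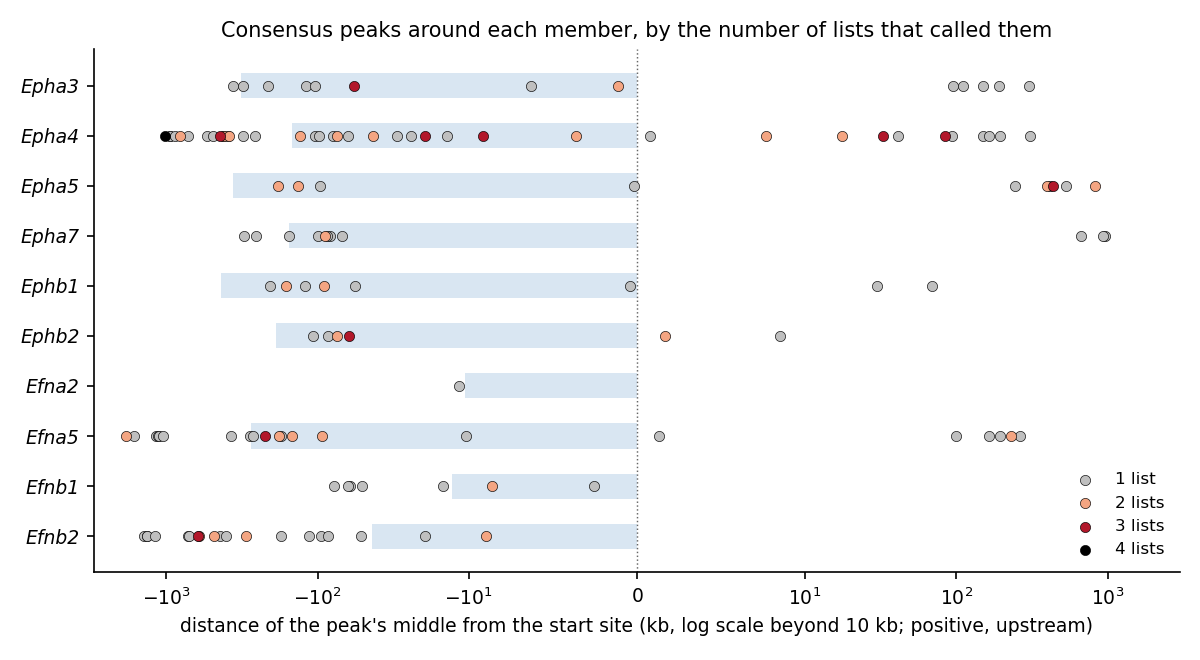
Distance of the middle of each consensus peak from the main start site of its gene in kb, on a log scale beyond 10 kb, with positive values upstream. Points are coloured by the number of lists, and blue bars are the genes. Epha4, Efna5 and Efnb2 reach past 1000 kb on the downstream side. Measured to the nearest start site of the gene, which is not drawn, all sites of Ephb2, Efna2 and Efnb1 lie within 100 kb.

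Among the ligands, Efna5 and Efnb2 had the most sites and the longest reach. Efna5 (chr17:62604184-62881317) encodes an A-class ephrin that guides axons as a repellent and had 21 sites, 9.46 per Mb over 2.22 Mb, of which 4 lay within 100 kb of a start. RGC RBPJ peaks were at 14, RGC Notch at 6, IPC RBPJ at 5 and IPC Notch at 3. An RGC RBPJ peak lay over the start (chr17:62881192-62884039, GC content 60.9%). The site of 3 lists in intron 1 (chr17:62657432-62660766) had 3335 bp of RGC RBPJ, 1349 bp of RGC Notch and 1388 bp of IPC Notch. The widest, an RGC Notch peak of 5396 bp (chr17:63143572-63148967), lay in the neighbouring gene Fbxl17, with 2 further sites. The farthest (chr17:61032539-61034844), RBPJ in both cell types, lay 1846 kb away. Efna2 (chr10:80179482-80190010), the other A-class ligand, had 1 site, an RGC Notch peak of 1350 bp with its middle 11.7 kb past the start (chr10:80190475-80191824), in a territory of 0.0267 Mb.

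Efnb2 (chr8:8617434-8661242), a B-class ephrin also known for its place in arteries, had 19 sites, 10.6 per Mb. All 19 lay in the gene or downstream of it, 17 of them past its end, and 7 were IPC RBPJ sites, as many as at Epha4. The territory of Efnb2 ran from chr8:6872357 to chr8:8671752, and its main start lay at chr8:8661242 on the minus strand. Little upstream sequence could therefore be assigned to the gene, and the layout on 1 side largely follows from the assignment rule. The widest site of all members (chr8:8648612-8655862, 7251 bp) lay in intron 1, with 7148 bp of RGC RBPJ and 1969 bp of IPC RBPJ. A site of 3 lists (chr8:8044635-8048252), 615 kb downstream, was covered by RGC Notch over all 3618 bp, with 1174 bp of RGC RBPJ and 383 bp of IPC RBPJ. At the far end (chr8:7267571-7269021) an IPC RBPJ peak lay 1370 kb away.

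Efnb1 (chrX:99136130-99148991), a B-class ephrin expressed by cortical progenitors, had 7 sites. None was called in IPCs, against 33.9% of all consensus peaks, and with 7 sites this count is coarse. RGC RBPJ peaks were at 6 and RGC Notch at 2. Its sites were wide, with a median of 3831 bp, and dense, 34.6 per Mb against 28.0 at Epha4. The first (chrX:99136598-99140809) was a 4212 bp peak over the start of another transcript, inside the gene. The widest (chrX:99141703-99147811), in the same first intron, had 5862 bp of RGC RBPJ and 4769 bp of RGC Notch. The farthest (chrX:99212905-99215334) was an RGC RBPJ peak 74.8 kb away.

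Peaks over a start site made up a small share of the sites. Of the 135 sites 6 covered one (4.44%, 2.05% to 9.36%), against 16.6% of all consensus peaks. They belonged to 6 different genes, Epha3, Epha4, Epha5, Ephb1, Efna5 and Efnb1. No gene had a further site of this kind, so the share falls as a gene has more sites. The genes were chosen for their many peaks, so a low share per site cannot show that their start sites were bound less often. The share of all protein-coding genes with a peak over a start is not given here. By the middle of the site, 48 lay in introns of their gene, 3 in exons and 84 outside it. Within 100 kb of a start lay 62 sites (45.9%, 37.7% to 54.3%), against 77.3% of all consensus peaks, and at Epha4 20 of 39 (51.3%, 36.2% to 66.1%). Territories, which limit the distances that can occur, ran from 0.0267 to 2.84 Mb.

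The word TTCCCA was about as frequent in the Epha4 sites as around them, within counting error. They held 115 words in 104 kb, 1.11 per kb, against 0.992 per kb in the rest of the territory, a ratio of 1.12 with an exact 95% interval of 0.916 to 1.35. Over the genome the ratio was 1.26, and 169 of the 276 genes with at least 10 sites had a higher one than Epha4. The longer word TTCCCAC, which contains it, gave a ratio of 1.70 (1.17 to 2.41) from 37 words, against 1.47 over the genome. At least 1 TTCCCA was found in 34 of the 39 sites (87.2%) and in 82.9% of all consensus peaks. All 10 genes together had 1.15 words per kb in their sites and 0.849 per kb in the rest, a ratio of 1.35. Between members the ratio ran from 0.841 at Epha5 to 1.84 at Epha3 among genes with any word in their sites, and Efna2 had none.

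Paired words are the form in which RBPJ and NICD are known to bind as dimers. TGGGAA followed by TTCCCA with 15 to 17 bases between them was found in no Epha4 site, in 2 of the 135 sites and in 48 of the 20809 consensus peaks (0.231%). The sites with a pair were an RGC RBPJ site of Epha3 (chr16:63974994-63976484) and a site of RGC Notch and IPC RBPJ in intron 1 of Efna5 (chr17:62786676-62790143). GATC, the site that Dam methylates, occurred 3.19 times per kb in the Epha4 sites and 2.35 in the rest of the territory, a ratio of 1.36 (1.21 to 1.52), against 1.16 over the genome. The homeodomain word TAATTA gave 1.38 (1.05 to 1.79) at Epha4 and 0.873 over the genome. All 10 genes together gave 0.993 (0.851 to 1.15), with 0.414 at Epha5 and 2.60 at Ephb2. GC content was 42.3% in the Epha4 sites and 40.4% in the rest, against 46.2% and 41.6% over the genome. Its part in the TAATTA ratios was not tested. Whether the GATC content had a part in where peaks were called was not tested.

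By the make-up of its sites over the 8 clusters, Epha4 was most like Sox9 (cosine 0.99 between the counts per cluster), Gli3 (0.96), Sox6 (0.95), Celf2 (0.94) and Efna5 (0.94), out of 275 other genes with at least 10 sites. Sox9, Gli3 and Sox6 encode transcription factors of neural progenitors and Celf2 an RNA-binding protein. Sox9 had 23 sites with 8 of IPC Notch, Gli3 21 with 5, and Sox6 30 with 7. Of the other members Efnb2 came next (0.84), and Ephb1 (0.55), Ephb2 (0.59) and Epha3 (0.61) were the least like Epha4, apart from Efna2 with its 1 site. Counts of few sites make these values coarse.

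The rest of the family had at most 6 sites each, as many as the member Ephb2. Of the 8 other Eph receptors 6 had at least 1 site, and of the 4 other ephrins 2, against 38.7% of protein-coding genes. Ephb3 had 6 sites in 3 lists, 4 of RGC RBPJ, 1 of RGC Notch and 2 of IPC RBPJ, and Epha6 had 6 sites, 3 of each RBPJ list. Epha2, Epha8 and Epha10 had 1 IPC RBPJ site each, Ephb4, Efna1 and Efna3 1 RGC RBPJ site each, and Epha1, Ephb6, Efna4 and Efnb3 none. No ephrin or receptor of this group had an IPC Notch peak. Of protein-coding genes 6.91% had one, and in so small a group having none is near that share.

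Among the 26 genes of forward signalling, which acts in the cell with the receptor, 19 had at least 1 site (73.1%), against 38.7% of protein-coding genes. Their territories ran from 0.00405 Mb at Cdk5 to 0.639 Mb at Kalrn, and those without a site had 0.0662 Mb or less. The shares here are not adjusted for territory. RGC RBPJ peaks were at 18 of the 26 (69.2%, against 30.9% of protein-coding genes) and RGC Notch at 7 (26.9%, against 11.5%). IPC RBPJ peaks were at 15 (57.7%, against 16.2%) and IPC Notch at 5 (19.2%, against 6.91%). Kalrn had the most with 16 sites. RBPJ was at 12 of them in RGCs and at 4 in IPCs, and Notch at 3 and 2. Fyn, a Src family kinase, had 8 sites in 4 lists, with RBPJ at 4 in either cell type and Notch at 3 in RGCs and 1 in IPCs. A single site of all 4 lists lay at the exchange factor gene Arhgef16. Chn1 and Chn2, which encode chimaerins that turn off Rac, had 3 and 6 sites in 3 lists each. Vav3, Arhgef19 and Itsn1, other exchange factor genes, had 2, 2 and 3 sites in 3 lists each. Of the 5 genes of reverse signalling and shedding 4 had sites (80%, against 38.7% of protein-coding genes), and Rgs3, a regulator of G protein signalling that binds B-class ephrins, had 6 sites in 3 lists.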

How the data were processed

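The 4 peak lists and the consensus file hold positions in bp. Per the methods and the processing notes of the submitters, the authors aligned reads to mm10 and used MACS2 to call broad peaks in each fusion sample against each Dam-only sample of its cell type. Peaks that failed the FDR filter or were missing from any such pairing were dropped. They merged overlapping peaks of the lists into consensus peaks and clustered these by k-means. In the deposited lists the score column is constant, so no signal, fold or q-value was used, and there are 0 columns of single samples. Hence no test between samples was possible, depth is unknown, and no replicate could be left out.

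Positions are on mm10 (GRCm38), counted from 1, with the GENCODE M21 annotation of that build and RefSeq sequence of GRCm38.p6. The 2 mitochondrial consensus peaks were left out. Each consensus peak was given to the protein-coding gene whose transcript start was nearest to its edge. An overlap counted from 1 bp, and the lists named in the consensus file differed from the overlaps at 0 peaks. The main start site is that of the APPRIS principal transcript. Features were read at the middle of a site, and a territory leaves out unsequenced bases. TTCCCA words were counted on both strands. Ratios of word density have exact binomial intervals, given the summed length. Likeness of genes is the cosine of their counts over the 8 clusters. Work was done in Python 3.11.15 with pandas 2.3.3, numpy 2.4.6 and scipy 1.17.1, and plots were drawn with matplotlib 3.10.9. The functions were tested on simulated data against direct searches and matched in 500 of 500 cases each.

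The members, lists and rules were chosen with earlier results of these data known. The text names, by rule, the 10 genes, their sites of 3 or 4 lists, over a start site, widest and farthest, the neighbours of Epha4, the 3 genes with the most sites, the 5 most like Epha4 and pathway genes with peaks in 3 or 4 lists. Other genes and sites named were chosen after their values were seen. The genes of the family and of the signalling lists were listed by general knowledge. Alternatives for the assignment, overlap, territory, chain and word are given with the closing observations.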

Additional observations from a re-analysis of the deposited data

How the results depend on the processing

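The number of Epha4 sites depended most on which genes and distances were allowed. It was 39 with the middle of the peak in place of its edge, 38 with 1 start site per gene and 33 with sites of at least 1000 bp, but 20 within 100 kb of a start and 5 with start sites of all annotated genes. For the 10 genes together the 135 sites became 62 within 100 kb and 40 with all annotated genes, and 135, 133 and 109 under the other settings. The share of Epha4 sites with 2 or more lists stayed at 38.5% when peaks had to overlap by at least 50% of the shorter and was 42.4% with sites of at least 1000 bp. Epha4 had 22.3 sites per Mb in a window reaching 1 Mb past either end of the gene and 59.3 within 100 kb of its start sites, against 28.0 in its territory. Its longest chain held 20 sites with gaps of at most 50 kb, 23 with 100 kb and all 39 with 200 kb. The TTCCCA ratio of 1.12 became 1.70 with TTCCCAC, 1.29 in the central 500 bp, 1.22 against flanks of 5 kb, and 1.07 outside repeats, an alternative chosen after seeing the data. The cause was not tested for any of these.

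No paired analysis was possible because the lists are pooled over samples and hold no value of a single one. Leaving out a replicate was not run for the same reason. The intervals cover counting error over peaks only, sites near one gene are not independent, and RBPJ and Notch of 1 cell type were set against the same controls.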
